A study of Mus musculus with 9 samples.

Results

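The fatty acid elongases and desaturases considered here were 10 genes: Elovl1, Elovl2, Elovl4, Elovl5, Elovl6, Elovl7, Fads1, Fads2, Scd1 and Scd2. Every probe on the array that is not a control and carries one of these symbols was taken, which gave 13 probes of the 39429 on the array, and 10 genes of 31829 gene names. Elovl1, Elovl4 and Fads2 had a pair of probes each. The brightest probe of a gene over all arrays is its reported probe, and the other probe is given beside it.

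Gene expression was measured in the mouse choroid (CH), the retinal pigment epithelium (RPE) and the photoreceptors (PR), with 3 arrays per tissue. The animals were female C57BL/6 mice, 6 months old with a margin of 2 weeks according to the labels, while the methods of the study name the substrain C57BL/6JOlaHsd and give a slightly younger age. Each sample was cut by laser from 1 whole eye, and RPE was taken away before the choroid was dissected. On each 2-colour Agilent array the sample was labelled with Cy5 and a common reference, made from choroid and RPE RNA, with Cy3, and no array had its dyes swapped. The level of a gene is therefore log2(Cy5/Cy3), where 0 means equal normalized signal from the sample and the reference. A dye effect of a probe remains in this level. All 13 probes were well above background and unsaturated in both channels on all 9 arrays, so no value of these probes is a bound. Levels are compared between tissues within a probe and never between probes. The number of arrays limits the precision, nothing ties a replicate number to 1 animal across tissues, and p-values measure only the spread between these samples. In bulk samples of this kind, fewer cells of a type and less RNA per cell cannot be told apart.

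Elongases of the Elovl family add carbon units to a fatty acyl-CoA chain in the endoplasmic reticulum, in a cycle that also needs a reductase for each of its reduction steps and a dehydratase. Desaturases put double bonds into the chain and draw electrons from cytochrome b5. Together they turn dietary precursors into long chain polyunsaturated fatty acids such as docosahexaenoic acid, which is abundant in the membranes of photoreceptor outer segments, and they turn saturated fatty acids into monounsaturated ones.

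The members did not share one pattern over the tissues. At the reported probe, 2 of the 10 genes, Elovl2 and Elovl4, had their highest mean level in PR, and the other 8 had their lowest mean level there. Among those 8, Scd1 and Elovl5 had their highest mean in CH and 6 had it in RPE.

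Promoter sequences of 5 members are shown as examples from both sides of that contrast: Elovl2 and Elovl4 were highest in PR, and Elovl5, Elovl7 and Fads2 had their lowest level there. They are RefSeq sequences of assembly GRCm38.p6, from 250 bases before the start of the gene to 50 after it, 5′ to 3′ on the strand of the gene. Capitals mark matches on either strand to the GC box, which reads GGGCGG, to the CCAAT box, named for its letters, and to the E-box, which reads CACGTG.
Elovl2 promoter, chr13:41220354-41220653, minus strand: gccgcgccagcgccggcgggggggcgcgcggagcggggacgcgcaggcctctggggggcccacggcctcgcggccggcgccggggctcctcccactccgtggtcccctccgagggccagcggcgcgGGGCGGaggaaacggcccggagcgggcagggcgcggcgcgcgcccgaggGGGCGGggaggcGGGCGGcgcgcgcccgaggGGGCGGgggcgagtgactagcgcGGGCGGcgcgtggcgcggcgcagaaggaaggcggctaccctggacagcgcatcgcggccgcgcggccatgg
Elovl4 promoter, chr9:83806256-83806555, minus strand: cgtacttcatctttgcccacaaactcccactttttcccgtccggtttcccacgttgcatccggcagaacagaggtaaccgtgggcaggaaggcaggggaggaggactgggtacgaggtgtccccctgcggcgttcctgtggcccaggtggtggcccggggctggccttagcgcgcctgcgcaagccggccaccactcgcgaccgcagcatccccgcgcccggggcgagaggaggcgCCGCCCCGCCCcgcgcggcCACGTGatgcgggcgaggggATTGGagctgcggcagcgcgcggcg
Elovl5 promoter, chr9:77917115-77917414, plus strand: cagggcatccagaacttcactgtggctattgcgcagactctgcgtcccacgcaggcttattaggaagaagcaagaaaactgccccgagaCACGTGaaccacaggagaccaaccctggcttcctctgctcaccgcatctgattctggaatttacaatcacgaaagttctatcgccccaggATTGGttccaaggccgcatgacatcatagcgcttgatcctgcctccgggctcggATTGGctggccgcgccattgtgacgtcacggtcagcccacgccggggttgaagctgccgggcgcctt
Elovl7 promoter, chr13:108214154-108214453, plus strand: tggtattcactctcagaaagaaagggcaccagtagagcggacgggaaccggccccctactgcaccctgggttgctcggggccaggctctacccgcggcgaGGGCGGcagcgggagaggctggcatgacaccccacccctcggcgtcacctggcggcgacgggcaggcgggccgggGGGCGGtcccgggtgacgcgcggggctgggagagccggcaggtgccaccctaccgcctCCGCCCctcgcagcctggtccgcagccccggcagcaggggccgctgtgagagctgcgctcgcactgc
Fads2 promoter, chr19:10101454-10101753, minus strand: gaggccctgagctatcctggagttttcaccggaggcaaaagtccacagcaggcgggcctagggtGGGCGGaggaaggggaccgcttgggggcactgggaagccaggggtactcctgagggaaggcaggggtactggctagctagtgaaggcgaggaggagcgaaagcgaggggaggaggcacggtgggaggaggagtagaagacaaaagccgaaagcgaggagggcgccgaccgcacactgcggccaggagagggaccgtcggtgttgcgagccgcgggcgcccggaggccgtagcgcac

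The RefSeq table held 9 promoters of 7 of the 10 members, and none was matched for Fads1, Scd1 or Scd2. Letters of a sterol regulatory element type, TCACNCCAC, stood in 0 of these 9 promoters and in 1.24% of all 32851 promoters of the same length. The letters TAATCC, a core that the photoreceptor factor CRX can bind, stood in 0 of the 9 and in 7.06% of all. The E-box was found in the promoters of Elovl4 and Elovl5 and in 7.15% of all promoters, the CCAAT box in 3 of the 9 and in 37.4% of all, and the GC box in 6 of the 9 and in 35.7% of all. The 2 last kinds overlap at 1 place in an Elovl1 promoter. A match is a description of letters in the window only.

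The starts of 4 probes are shown because the results below turn on what these probes measure. Fads2 is the gene whose probes differed most in the size of the tissue steps, and Scd1 and Scd2 are the pair that differed in direction. Each line gives the first 30 of 60 bases, and positions are on mm9, as the files give them.
Fads2 reported probe, chr19:10137760-10137819, minus strand: tttagctgttgtgttaacatttcctacaga
Fads2 other probe, chr19:10163229-10163288, minus strand: agctggatggctgcaacatgactatggcca
Scd1 probe, chr19:44469387-44469446, minus strand: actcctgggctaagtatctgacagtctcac
Scd2 probe, chr19:44381024-44381083, plus strand: acatttggggatcctctgcagaggagtatt

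The statistics come from limma, which estimated the 3 tissue means of every probe from all 9 arrays together. A probe was called when its fold change was above 2.5 and its Benjamini-Hochberg adjusted p-value was below 0.01. Each difference is a log2 difference between tissue means with its standard error (SE), and FC is the fold change.

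The largest contrast was between PR and the other tissues. Of the 13 probes, 9 were called higher in RPE than in PR, against 10.3% of all probes, and 2 were called higher in PR, against 5.17% of all probes. Their median log2 difference, RPE against PR, was 1.89, where the median of all probes was -0.01. In the comparison of CH with PR, 7 of the 13 probes were called higher in CH, against 12.0% of all probes, and 3 were called higher in PR, against 6.33%. The median was 1.58, where that of all probes was -0.05. These comparisons share the PR arrays.

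Between RPE and CH none of the 13 probes was called by limma, where 0.185% of all probes were called higher in RPE and 1.55% higher in CH. At an unadjusted p below 0.05, 11 of the 13 differed, where 33.6% of all probes did. With the adjusted p alone, and no threshold on the fold, 6 probes of 4 genes were higher in RPE, where 5.18% of all probes were. None of the 13 was higher in CH by that rule, which 6.92% of all probes passed. The 4 genes were Elovl1, Elovl6, Fads1 and Fads2, with both probes of Elovl1 and Fads2. This count was less stable than those against PR: leaving out CH replicate 2 gave 3, as did leaving out RPE replicate 1, and leaving out CH replicate 3 gave 8, 1 of them higher in CH. It was also 1 with median centring, 0 with the authors' series table and 3 with the arrays of both tissues alone.

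**Figure D1:**
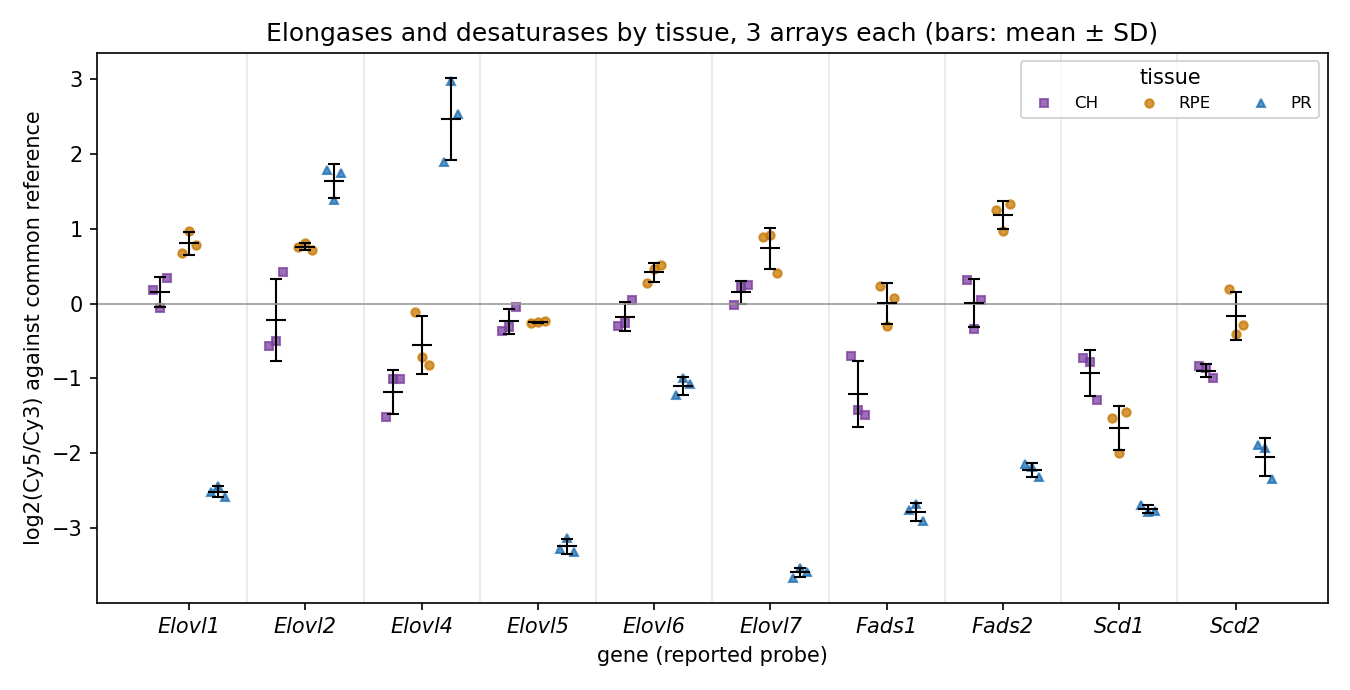
Level of each gene at its reported probe, as log2(Cy5/Cy3) against the common reference (y axis), for the 10 genes (x axis). Squares, circles and triangles are CH, RPE and PR arrays, 3 each, and black bars are the mean ± SD; Elovl2 and Elovl4 have the triangles on top, and the other 8 genes have them at the bottom.

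Elovl4 extends polyunsaturated and saturated chains to very long chains, and mutations of the human gene cause a dominant form of macular dystrophy. On the PR arrays its reported probe, chr9:83673253-83673312 on mm9, was at 1.89, 2.98 and 2.54. The RPE arrays gave -0.11, -0.72 and -0.82, and the CH arrays gave -1.52, -1.01 and -1.01. All PR arrays were above all others, and the RPE arrays were above the CH arrays without overlap. Elovl4 was 8.10-fold higher in PR than in RPE (log2 difference, RPE against PR, -3.02, SE 0.28, adjusted p = 1.15e-05) and 12.5-fold higher than in CH (-3.65, SE 0.28, adjusted p = 2.41e-06). The RPE and CH differed by 0.63, with a 95% interval from -0.01 to 1.27, which did not pass (adjusted p = 0.153). The other probe, chr9:83672645-83672704, gave log2 differences of -2.87, -3.52 and 0.65 in the same 3 comparisons, so both probes put PR first, then RPE, then CH.

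The rod markers followed the same order of tissues. The mean log2(Cy5/Cy3) of 8 rod genes, among them rhodopsin, ranged from 3.54 to 3.77 in PR, from -0.82 to 0.08 in RPE and from -1.42 to -0.57 in CH, and all 8 were well above background on every array. RPE replicate 1 was the highest RPE array for Elovl4 and for the rod list, and CH replicate 1 was the lowest CH array for both. Other ranks differed at the reported probe. The lowest RPE array was replicate 3 for Elovl4 and replicate 2 for the rod list. Among the PR arrays, replicate 2 was the highest for Elovl4, at 2.98, and the lowest for the rod list, at 3.54. None of the 8 rod genes was called between RPE and CH. The part of photoreceptor RNA in the Elovl4 level of RPE and CH arrays was not tested.

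Elovl2 elongates polyunsaturated chains on the way to docosahexaenoic acid. Its probe, chr13:41277884-41277943, was at 1.78, 1.38 and 1.75 on the PR arrays. On the RPE arrays it was at 0.75, 0.81 and 0.72, and on the CH arrays at -0.57, -0.49 and 0.42. The 3 tissues did not overlap, and CH replicate 3 stood above the other CH arrays. The PR was 3.61-fold above CH (log2 difference, CH against PR, -1.85, SE 0.24, adjusted p = 8.17e-05). The PR was 1.83-fold above RPE (-0.88, SE 0.24, adjusted p = 0.0107), which missed both thresholds. The RPE was 1.97-fold above CH (0.98, SE 0.24, adjusted p = 0.0152), which missed both as well. The RPE level of Elovl2 thus lay between its PR and CH levels, and neither step was called. CH replicate 3 was also the CH array with the highest mean of the 7 RPE markers, at 1.11, where the other CH arrays were at 0.49 and 0.24. At the reported probes, Elovl1, Elovl5, Elovl6 and Elovl7 also had their highest CH value on that array. Fads1, at -1.49, Scd1 and Scd2 had their lowest CH value there, and Elovl4 and Fads2 had their middle one. The part of RPE RNA in that array was not tested.

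Elovl5 elongates polyunsaturated chains of medium length, the step before Elovl2. Its probe, chr9:77832205-77832264, was at -3.28, -3.13 and -3.32 on the PR arrays. The RPE arrays gave -0.26, -0.25 and -0.24, and the CH arrays gave -0.36, -0.31 and -0.05. The RPE arrays lay inside the range of the CH arrays, and the PR arrays were far below both. The RPE was 7.97-fold above PR (log2 difference 2.99, SE 0.11, adjusted p = 2.05e-08) and CH was 8.03-fold above PR (3.01, SE 0.11, adjusted p = 1.26e-08). The RPE and CH differed by -0.01, with a 95% interval from -0.25 to 0.22, the smallest such difference among the members. Of the elongases that act on polyunsaturated chains, Elovl5 was called lower in PR than in CH, while Elovl2 and Elovl4 were called higher there.

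Elovl7 elongates saturated long chains, and it had the widest range of tissue means of the 10 genes. Its probe, chr13:109073556-109073615, was at -3.66, -3.53 and -3.58 on the PR arrays. On the RPE arrays it was at 0.88, 0.91 and 0.42, and on the CH arrays at -0.02, 0.22 and 0.25. The RPE arrays were all above the CH arrays, by a small margin at RPE replicate 3. Elovl7 was 20.1-fold higher in RPE than in PR (log2 difference 4.33, SE 0.14, adjusted p = 1.57e-08) and 13.4-fold higher in CH than in PR (3.74, SE 0.14, adjusted p = 2.06e-08). The RPE stood 0.59 above CH, which did not pass (SE 0.14, adjusted p = 0.016).

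Elovl1 makes saturated and monounsaturated very long chains, which go into sphingolipids. Its reported probe, chr4:118105163-118105222, was at -2.52, -2.43 and -2.58 on the PR arrays. The RPE arrays gave 0.67, 0.98 and 0.78, and the CH arrays gave 0.18, -0.05 and 0.35. The 3 tissues were apart, with RPE on top. The RPE was 9.98-fold above PR (log2 difference 3.32, SE 0.12, adjusted p = 2.97e-08) and CH was 6.35-fold above PR (2.67, SE 0.12, adjusted p = 7.31e-08). Against CH, RPE stood 0.65 higher at the reported probe (SE 0.12, adjusted p = 0.0052) and 0.86 higher at the other probe, chr4:118104741-118104800 (SE 0.10, adjusted p = 0.000589). Both passed the adjusted p and missed the fold threshold.

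Elovl6 elongates palmitate to stearate, the entry to the long chains. Its probe, chr3:129341248-129341307, was at -1.22, -0.99 and -1.08 on the PR arrays. On the RPE arrays it was at 0.28, 0.46 and 0.52, and on the CH arrays at -0.30, -0.26 and 0.05. The tissues did not overlap and the steps to PR were smaller than those of Elovl1, Elovl5 and Elovl7. The RPE was 2.86-fold above PR (log2 difference 1.51, SE 0.12, adjusted p = 3.94e-06). The CH was 1.90-fold above PR (0.92, SE 0.12, adjusted p = 0.000111), under the fold threshold. The RPE was 1.5-fold above CH (0.59, SE 0.12, adjusted p = 0.00769), also under it. The RPE call against PR was lost with the log ratio of the scanner software (1.25) and with median centring in place of loess (1.29).

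**Figure D2:**
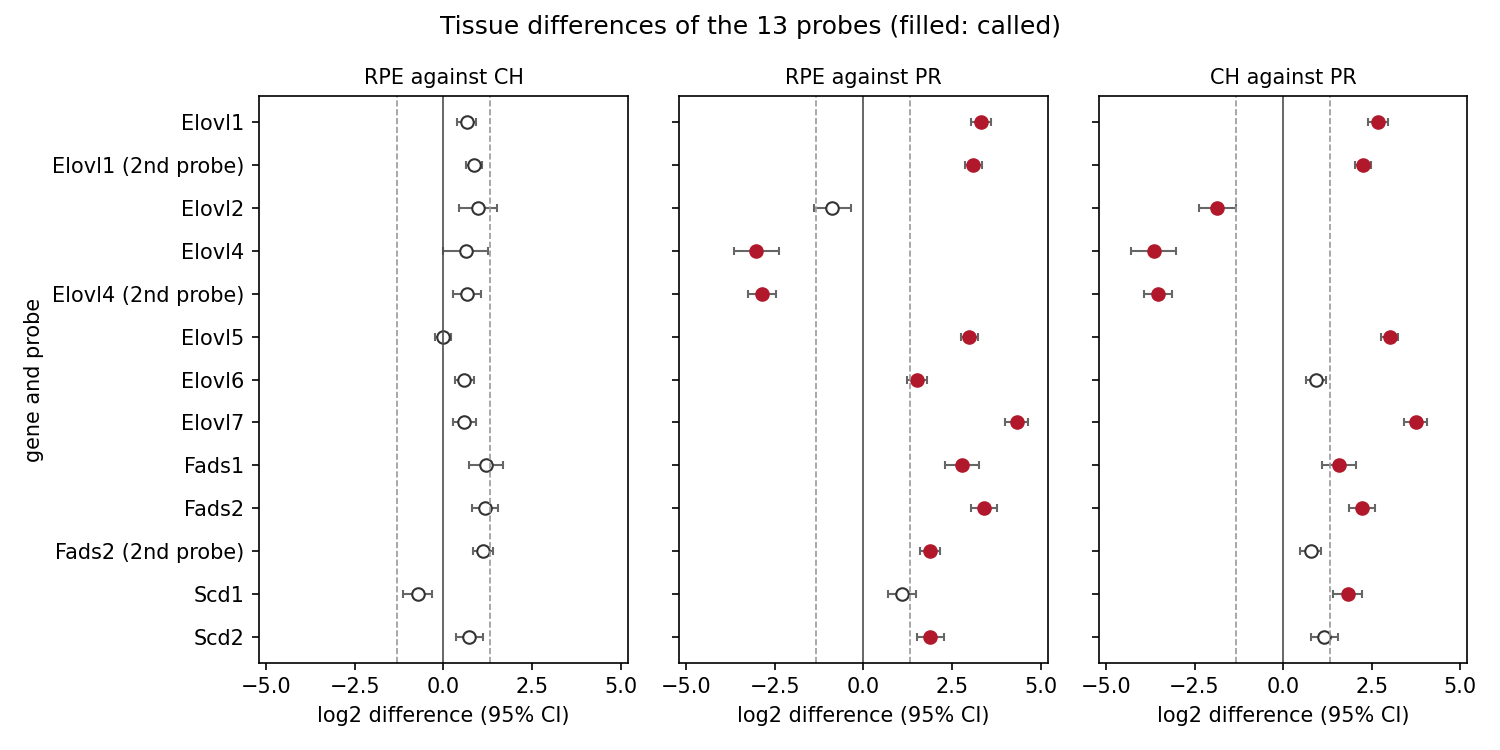
Log2 difference between tissue means (x axis, points) with its 95% confidence interval (bars) for the 13 probes (y axis), in the 3 comparisons. Filled points were called and dashed lines mark a fold change of 2.5 either way; no probe is filled in the panel of RPE against CH, where Scd1 lies left of 0 and Fads1 and Fads2 lie farthest right.

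Fads2 carries out the first desaturation of the polyunsaturated precursors, and Fads1 a later one. On chromosome 19 these genes are neighbours, in the order Fads3, Fads2, Fads1. The reported Fads2 probe was at 1.25, 0.97 and 1.34 on the RPE arrays. On the CH arrays it was at 0.31, -0.34 and 0.05, and on the PR arrays at -2.14, -2.19 and -2.32. All RPE arrays were above all CH arrays, and these above all PR arrays. Fads2 was 10.6-fold higher in RPE than in PR (log2 difference 3.40, SE 0.16, adjusted p = 1.25e-07) and 4.68-fold higher in CH than in PR (2.23, SE 0.16, adjusted p = 1.62e-06). The RPE was 2.26-fold above CH (1.17, SE 0.16, adjusted p = 0.00114), with a 95% interval of the log2 difference from 0.81 to 1.54.

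The other Fads2 probe was at 0.82, 1.07 and 0.85 in RPE. It was at 0.05, -0.34 and -0.31 in CH and at -0.96, -1.05 and -0.89 in PR. The order of the tissues was that of the reported probe, and the step from RPE to CH was of like size (1.11, SE 0.13, adjusted p = 0.000442). Against PR the steps were smaller, at 1.88 from RPE (adjusted p = 1.1e-06) and 0.77 from CH, which was not called. The gap between the probes was 1.52 on the log2 scale for RPE against PR and 1.46 for CH against PR. In an exact two-sided permutation test of the within-array difference between the probes, either gap had p = 0.1, the smallest value that 3 arrays against 3 allow (0.171 adjusted over 12 such tests). So 1 of the 2 Fads2 probes called CH above PR and the other did not. The other probe was also far dimmer, with a mean log2 intensity over both dyes of 9.69, against 13.45 for the reported probe. The part of this dimness in the gap was not tested.

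Fads1 was at 0.24, -0.30 and 0.08 on the RPE arrays (probe chr19:10270530-10270589). On the CH arrays it was at -0.70, -1.43 and -1.49, and on the PR arrays at -2.76, -2.68 and -2.91. CH replicate 1 was closer to the RPE arrays than the other CH arrays were, and the tissues did not overlap. The RPE was 6.91-fold above PR (log2 difference 2.79, SE 0.21, adjusted p = 2.59e-06), and CH was 2.99-fold above PR (1.58, SE 0.21, adjusted p = 0.000124). The RPE was 2.31-fold above CH (1.21, SE 0.21, adjusted p = 0.00342), the largest RPE to CH step among the members. Without CH replicate 1 that step was 1.46 and Fads1 was called, as was the reported probe of Fads2, at 1.33. Without RPE replicate 2 the Fads1 step was 1.36 and was called. The CH call of Fads1 against PR was lost with the slide as a block (1.21, adjusted p = 0.0115) and with the scanner software's log ratio (1.27).

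Scd1 and Scd2 are stearoyl-CoA desaturases, which make oleate and palmitoleate from saturated chains, and they lie in the same gene cluster on chromosome 19. Scd1 was at -0.72, -0.78 and -1.29 on the CH arrays. On the RPE arrays it was at -1.53, -2.0 and -1.45, and on the PR arrays at -2.69, -2.78 and -2.77. Scd1 had its highest level in CH, with no overlap between tissues, and its log2(Cy5/Cy3) was below 0 on all 9 arrays. The CH was 3.52-fold above PR (log2 difference 1.82, SE 0.18, adjusted p = 1.3e-05). The RPE was 2.12-fold above PR (1.09, SE 0.18, adjusted p = 0.000553), under the fold threshold. The CH was 1.66-fold above RPE (RPE against CH -0.73, SE 0.18, adjusted p = 0.0164), which missed both thresholds.

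Scd2 had the opposite order between these tissues. It was at 0.20, -0.40 and -0.29 on the RPE arrays, at -0.83, -0.86 and -1.0 on the CH arrays and at -1.89, -1.93 and -2.35 on the PR arrays. The RPE was 3.71-fold above PR (log2 difference 1.89, SE 0.17, adjusted p = 9.42e-06). The CH was 2.24-fold above PR (1.16, SE 0.17, adjusted p = 0.000253), and RPE 1.66-fold above CH (0.73, SE 0.17, adjusted p = 0.0142), neither of which was called. Within each array the Scd2 log ratio minus the Scd1 log ratio was 1.72, 1.60 and 1.16 in RPE and -0.11, -0.08 and 0.29 in CH. The mean of this quantity differed by 1.46 between RPE and CH, with no overlap of the arrays. The exact two-sided permutation test gave p = 0.1, the smallest possible here (0.171 adjusted over the 12 tests), so it could not reach the threshold. This pair was chosen after its values were seen.

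Several marker lists also had their highest level in CH, like Scd1. The mean log2(Cy5/Cy3) of 5 fibroblast genes ranged from 1.29 to 1.74 in CH, from -1.29 to -0.94 in RPE and from -5.03 to -4.41 in PR. CH replicate 3 was the lowest CH array for Scd1 and for the fibroblast list, and also for the endothelium, melanocyte, Schwann cell, macrophage and skeletal muscle lists, while it was the highest for the RPE list. For the adipocyte list the lowest CH array was replicate 2, at -0.32. Among the RPE arrays, replicate 3 was the highest for Scd1, at -1.45, and the lowest for the fibroblast list, at -1.29. Among the PR arrays, replicate 1 was the highest and replicate 2 the lowest for both. Of the 7 adipocyte genes, 3 were well above background on all CH arrays. The adipocyte genes Adipoq, Plin1, Cidec and Lep were not well above background on all arrays of any tissue. Fabp4, which endothelium also expresses, was called higher in CH than in RPE (RPE against CH -1.99, adjusted p = 0.00148). The other genes above background on all CH arrays, Retn and Cfd, were not called between these tissues. Retn differed by -0.22 (adjusted p = 0.274) and by -0.95 for CH against PR. Cfd, above background on 2 of the 3 RPE arrays, differed by -1.23 (adjusted p = 0.144). Cfd was called higher in CH than in PR (adjusted p = 0.00321). No fold is given there, because its probe was not well above background on any PR array. The part of these cells in the Scd1 level was not tested.

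The labels of the tissues were checked with the same marker lists. Of 7 RPE genes, 5 were called higher in RPE than in CH and 6 higher in RPE than in PR. Best1, the exception in both comparisons, was not well above background on all arrays of any tissue, and Rgr stood 1.34 above CH but missed the adjusted p (0.0257). The mean of the RPE list ranged from 1.80 to 2.17 in RPE, from 0.24 to 1.11 in CH and from -2.69 to -2.51 in PR, so RPE markers were also measured in CH. All 8 rod and 5 cone genes were called higher in PR than in both other tissues, and all 5 fibroblast genes were called higher in CH than in RPE. RPE markers stood 1.56 higher in RPE than in CH at the median of the list, where Fads1 and Fads2 stood 1.21 and 1.17 higher, and the part of shared RNA in either difference was not tested. Other lists are given by their mean per tissue array. Endothelium lay between 0.88 and 1.54 in CH, 1.10 and 1.28 in RPE and -1.94 and -1.78 in PR. None of the 6 endothelium genes was called between RPE and CH (median -0.05), so this list did not separate these tissues. Melanocytes lay between 0.47 and 0.76 in CH, -0.70 and -0.15 in RPE and -3.54 and -3.23 in PR. Macrophages lay between -0.48 and 0.09, -1.01 and -0.95, and -3.27 and -3.23 in the same order of tissues. Schwann cells and myelin lay between 1.16 and 1.30, 0.34 and 0.51, and -1.42 and -1.16. Müller glia lay between -1.28 and -0.88, -1.58 and -0.89, and -2.25 and -1.08, skeletal muscle between -2.27 and -2.14, -2.66 and -1.95, and -2.83 and -2.66, and adipocytes between -0.32 and 0.15, -0.89 and -0.38, and -0.61 and -0.31. The Müller glia genes disagreed. Glul and Dkk3 were called lower in PR than in both other tissues. Slc1a3 and Aqp4 had their highest mean in PR, at -1.18 and -1.79, and Kcnj10 had it in CH. Cones lay between -1.47 and -0.81 in CH, -0.95 and -0.53 in RPE and 2.74 and 2.96 in PR. Of the 5 melanocyte genes, 3 were called higher in CH than in RPE. Dct was lower in RPE without a call (-0.82, adjusted p = 0.0602). Tyr went the other way, under the fold threshold (RPE against CH 0.68, adjusted p = 0.00872).

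**Figure D3:**
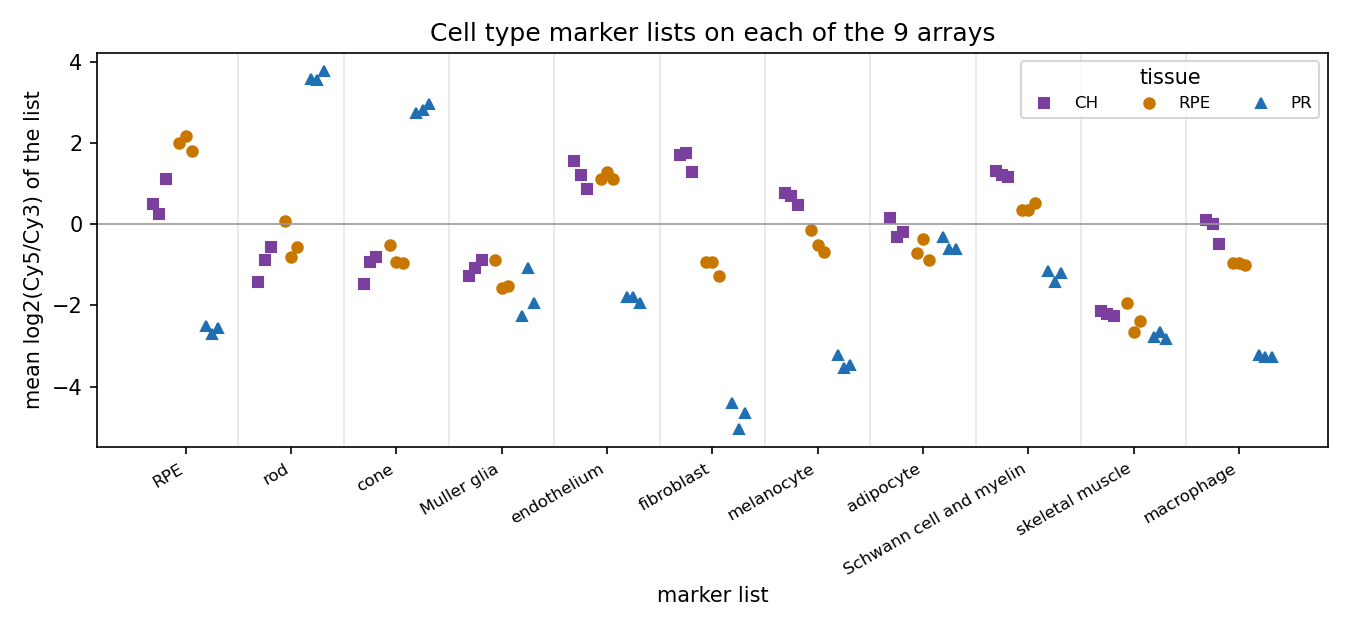
Mean log2(Cy5/Cy3) of each of 11 cell type marker lists (y axis; lists along the x axis) on the 3 CH (squares), 3 RPE (circles) and 3 PR (triangles) arrays, 1 point per array. The rod and cone lists are highest in PR, the RPE list is highest in RPE, and the fibroblast and melanocyte lists are highest in CH. The CH and RPE points of the endothelium list overlap.

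The surrounding pathway was read from 8 lists of genes, each counted once, with a gene called when at least 1 of its probes was. Of all probes, 0.185% were called higher in RPE than in CH and 1.55% higher in CH. Against PR, 10.3% were called higher in RPE and 12.0% higher in CH, while 5.17% and 6.33% were higher in PR. These shares count single probes and not genes, so they give only a rough scale. Whether a list differed from them was not tested. All 70 genes of the lists had a probe, and the brightest probe of 10 of them was not well above background on all arrays of at least 1 tissue. These genes stay in the medians. A median is that of the brightest probe of each gene, beside the medians of all probes, which were 0.04 for RPE against CH, -0.01 for RPE against PR and -0.05 for CH against PR. Among the 5 other elongases and desaturases, 1 was called, and it was Fads3, the third gene of the Fads cluster. Fads3 was 4.77 higher in RPE than in PR on the log2 scale (adjusted p = 1.47e-08), 3.77 higher in CH than in PR (adjusted p = 3.26e-08) and 1.0 higher in RPE than in CH, which was not called. Elovl3, which was not well above background on any array, Fads6, Scd3 and Scd4 were called in none of the 3 comparisons, and the medians of the list were 0.18, 0.24 and 0.11 for RPE against CH, RPE against PR and CH against PR, the last being the value of Elovl3.

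The elongation cycle needs a ketoacyl reductase, a dehydratase and an enoyl reductase beside the elongase. Of 7 such genes, 2 were called higher in RPE than in PR and 2 higher in CH than in PR, and the medians were 0.16 and 0.05. They were the dehydratase Hacd4, with log2 differences of up to 2.95 and 4.41, and the ketoacyl reductase Hsd17b12, with 1.95 and 1.33. Hacd4 was also called lower in RPE than in CH at 1 of its 2 probes (-1.46, adjusted p = 0.00489), and the median of that comparison was -0.12. Tecr, the enoyl reductase, differed by 0.33, 0.16 and -0.16 in the 3 comparisons and was not called.

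Cytochrome b5 and its reductases hand electrons to the desaturases. Of 6 genes, 3 were called higher in RPE than in PR (median 0.90), 3 higher in CH than in PR and 1 higher in PR than in CH (median 1.28), and none between RPE and CH (median -0.08). Cyb5a, the microsomal cytochrome b5, stood 2.63 higher in RPE and 3.11 higher in CH than in PR. The reductase Cyb5r3 stood 2.19 and 2.28 higher in the same order, at the brighter of its probes, and Cyb5r2 was the third gene called in CH, with no fold given because its probe was not well above background on any PR array. Cyb5b was called in RPE against PR at 1 probe (1.49), and Cyb5r1 was called lower in CH than in PR at 1 probe (-1.93) and not at the other (-0.88).

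De novo synthesis supplies the palmitate that Elovl6 and Scd1 act on. Of 8 genes, 2 were called higher in RPE than in PR (median 0.37), 2 higher in CH than in PR and 1 higher in PR than in CH (median 0.14), and none between RPE and CH (median 0.13). Acacb, an acetyl-CoA carboxylase, stood 3.45 higher in RPE and 4.11 higher in CH than in PR. Acaca, the other acetyl-CoA carboxylase of the list, was called in none of the 3 comparisons. At its brightest probe it differed by -0.14 for RPE against PR and by 0.35 for CH against PR. Slc25a1, the mitochondrial citrate carrier, stood 2.5 and 2.44 higher, and Acss2, which makes acetyl-CoA from acetate, was called lower in CH than in PR at 1 of 2 probes (-1.37). Fasn, the fatty acid synthase, differed by 0.36 between RPE and CH and by 0.75 between RPE and PR and was not called.

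Acyl-CoA synthetases activate fatty acids for elongation and desaturation. Of 13 genes, 1 was called higher in RPE than in CH (median 0.09), 2 higher in RPE than in PR (median 0.52) and 3 higher in CH than in PR (median 0.20). Acsl6, which prefers docosahexaenoic acid, was the gene called between RPE and CH, at 1.38 for 1 probe (adjusted p = 0.00255) and 1.27, under the fold threshold, for the brighter probe. It was also called in RPE against PR, at 1.48. Acsl5 stood 1.73 higher in RPE and 2.05 higher in CH than in PR, and Acsl4 stood 1.37 higher in CH than in PR. Acsbg1 was also called in CH against PR (1.72), although 1 of the 3 PR arrays did not measure it well above background.

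SREBP and LXR are transcription factors that act on many lipogenic genes. Of 13 genes of this list, 3 were called higher in RPE than in PR (median 0.49) and 4 higher in CH than in PR (median 0.71), and none between RPE and CH (median -0.21). Insig1, which holds SREBP in the endoplasmic reticulum, stood 2.08 higher in RPE than in PR. The adipogenic receptor Pparg stood 2.04 higher in RPE and 2.81 higher in CH than in PR. Srebf1, the SREBP gene of fatty acid synthesis, was the third gene called there, at 1.48 (adjusted p = 9.15e-05). Insig2 (1.83 at 1 probe) and Nr1h3 (1.68), an LXR, and Mlxipl (1.49), the carbohydrate response factor, were called higher in CH than in PR.

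Peroxisomes shorten the chains that elongation has made too long, the last step to docosahexaenoic acid. Of 9 genes, 3 were called higher in RPE than in PR (median 0.43) and 1 higher in CH than in PR (median 0.14), and none between RPE and CH (median 0.30). Among them were the transporter Abcd3, with 2.29 against PR in RPE and 1.49 in CH, and the thiolase gene Scp2, with 1.65 in RPE.

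Genes of uptake and esterification were divided between the tissues. Of 9 genes, 2 were called higher in RPE than in PR and 1 higher in PR (median -0.38), 1 was called higher in CH than in PR and 3 higher in PR (median 0.33), and none was called between RPE and CH (median 0.56). Mfsd2a, which carries docosahexaenoic acid as lysophospholipid into cells, stood 4.26 higher in RPE and 3.05 higher in CH than in PR. Lpcat3, an acyltransferase for polyunsaturated chains, stood 1.87 higher in RPE than in PR. In the other direction Adipor1, a receptor needed for retinal docosahexaenoic acid, differed by -1.44 for RPE against PR and by -1.99 for CH against PR, and the acyltransferase Agpat3 by -2.04 for CH against PR. Lpcat1, another acyltransferase and the third gene called lower in CH, was at -1.85.

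**Figure D4:**
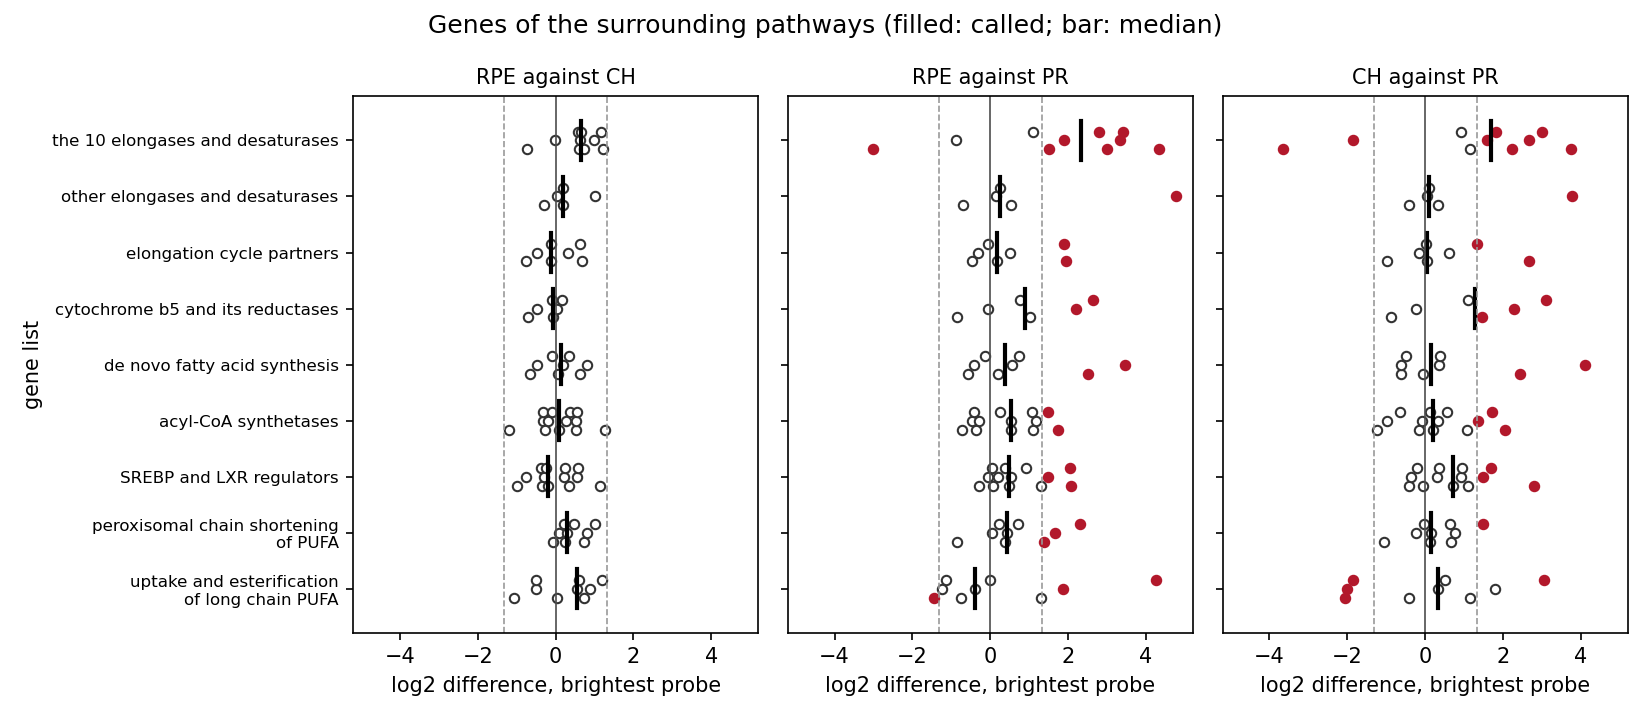
Log2 difference at the brightest probe (x axis) of each gene of the 8 pathway lists and of the 10 elongases and desaturases (y axis), in the 3 comparisons. Filled points were called at that probe, thick bars are list medians and dashed lines mark a fold change of 2.5; the elongases and desaturases have medians of 0.64, 2.34 and 1.70.

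For the members with the widest range of tissue means, the genes with the most similar pattern were found by Pearson correlation of log2(Cy5/Cy3) over the 9 arrays, as a description. The arrays fall into tissues, so r mostly reflects the tissue means. For Elovl7 the 5 genes were Aass (r = 0.998), Tnfrsf19, Echdc2, Ctsd and Smpdl3a, all with r of 0.998. Their mean levels in PR lay between -4.39 and -1.94 and in RPE between 0.42 and 1.82. For Elovl4 they included LOC433064 (0.997), Nxnl1 (0.997), Syt1 (0.996) and Cacna1s (0.996). Nxnl1 encodes a thioredoxin-like protein of photoreceptors and Syt1 a synaptic calcium sensor. The mean levels of these 4 genes lay between 0.50 and 2.16 in PR, and between -1.28 and -0.21 in CH.

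The arrays lay on 3 slides. The 1 slide with PR replicates 1 and 3 held no other tissue, so tissues were compared within the other slides. On the slide with replicates 1 and 3 of CH and RPE, the log2 differences between RPE and CH at the reported probes were 1.25 for Fads1, 1.11 for Fads2, 0.82 for Elovl2, 0.80 for Elovl4, 0.87 for Scd2, 0.46 for Elovl1, 0.53 for Elovl7, 0.52 for Elovl6, -0.045 for Elovl5 and -0.48 for Scd1. On the slide with replicate 2 of each tissue they were 1.13 for Fads1, 1.30 for Fads2, 1.30 for Elovl2, 0.29 for Elovl4, 0.46 for Scd2, 1.03 for Elovl1, 0.69 for Elovl7, 0.72 for Elovl6, 0.056 for Elovl5 and -1.21 for Scd1. The sign was that of all arrays for each gene on both slides, except Elovl5 on the second. On that slide RPE stood above PR by 4.45 for Elovl7, 3.41 for Elovl1, 3.16 for Fads2, 2.88 for Elovl5, 2.38 for Fads1, 1.53 for Scd2, 1.45 for Elovl6 and 0.78 for Scd1, and differed from it by -3.69 for Elovl4 and -0.57 for Elovl2, with 1 array per tissue and no test. The CH stood above PR there by 3.75 for Elovl7, 2.83 for Elovl5, 2.38 for Elovl1, 2.0 for Scd1, 1.85 for Fads2, 1.25 for Fads1, 1.07 for Scd2 and 0.72 for Elovl6, and differed from it by -3.98 for Elovl4 and -1.87 for Elovl2.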

How the data were processed

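Expression was measured on 9 dual-colour Agilent arrays. The authors deposited Feature Extraction output (version 9.5.3.1 per the submitters' processing notes, which also name R 2.14.0 and limma) and a series table. Mean signals and local backgrounds in the deposited output are intensity values as scanned, and they were the starting point. The deposited output also has a log10 ratio of the processed dyes (Cy5 to Cy3), and the authors' table for the series has log2 signals of Cy5 alone, whose normalization is not given in the sources used here. Its scale matched log2 of the scanned Cy5 signal (r per array from 0.985 to 0.999), its column medians were 9.53, 9.51 and 9.49 for CH, 9.55, 9.50 and 9.53 for RPE and 9.40, 9.40 and 9.38 for PR, and whether it was centred is not known. Both served only as alternatives.

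The normexp method (offset 50) removed background, and loess then normalized each array's log2 ratio of Cy5 to Cy3. Control spots and outlier-marked spots (228 to 586 per array) were left out and repeated spots averaged. The median Cy5 signal lay between 617 and 1534, and between 63.1% and 91.8% of 43020 spots were well above background in Cy5, with the highest share in RPE replicate 2. The fit used limma 3.58.1 (R 4.3.3), and p-values were adjusted over 39429 probes (Benjamini-Hochberg). Probes past both a 2.5-fold change and an adjusted p of 0.01 were called, as in the methods of the study. On simulated arrays 93 of 100 probes changed by 2 on the log2 scale were called in RPE against CH and 95 of 100 in RPE against PR, over 38847 probes, with 0 false calls, and 100 of 100 changed by 3 were called in each. Changes as small as those of the members between RPE and CH, at most 1.21 in size, were not simulated.

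The reported probe of a gene is its brightest. Pathway genes are named where called, up to 4 per list, by size of the difference, and others named were chosen after their values were seen, as were the call by adjusted p alone, the within-slide values and the comparisons of probes within arrays. The members and lists were chosen with earlier results of these data known. Names came from the files and from a RefSeq table (GRCm38.p6) that matched 26055 probes by accession; promoters came from RefSeq on GRCm38.p6, whose positions were not compared with the mm9 positions of the probes. Whether a probe lies in a coding part was not analysed here, and some genes that the rules name are not reported here. Summaries were made with Python 3.11.15. Alternatives covered background, normalization, the series table, the arrays fitted, blocks, dim and marked spots, several probes, the variance model, both thresholds and each array left out.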

Additional observations from a re-analysis of the deposited data

How the results depend on the processing

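The 10 genes were refitted in 3 comparisons under 24 alternatives. Of 720 values, 706 kept their direction and their call by fold and adjusted p together. Many of them could not change direction, because the alternative left the log2 difference as it was. This held for both relaxed thresholds, Aquantile, the variance model, the replicate block and dim probes left out. It also held where only the 2 tissues compared were fitted, or an array outside the comparison was left out. The 706 are therefore no measure of how stable the directions are. The adjusted p alone changed its side of 0.01 in 47, of which 35 were in RPE against CH. Elovl5 in RPE against CH changed sign with the series table (0.061) and without CH replicate 3 (0.085), from -0.011, and ranged from -0.074 to 0.085 with 1 array left out. The number of probes called between RPE and CH went from 0 to 3 with a fold change above 2 (Fads1 and both Fads2 probes), where the probes called higher in RPE rose from 73 to 409 of 39429, and with 1 array left out it was between 0 and 2. With that fold, Scd1 in RPE against PR (1.09) and Scd2 in CH against PR (1.16) were also called, and Scd2 was called with median centring (1.46). By the adjusted p alone, the 6 probes higher in RPE than in CH became 1 with median centring, 0 with the series table and 3 with only the arrays of both tissues fitted, and with 1 array left out between 3 and 8. The cause was not tested, except that fitting fewer arrays leaves fewer degrees of freedom. The calls of all probes between RPE and CH moved with these settings as well, as given above. Against PR the counts stayed within 1.5 times. With the mean of the probes of a gene, 8 genes each were called in RPE against PR and in CH against PR. In RPE against PR, 7 were higher in RPE and 1 in PR, where 3206 and 1539 of 31829 gene names were. In CH against PR, 6 were higher in CH and 2 in PR, where 3751 and 1836 of all names were. Loess followed by Aquantile leaves the log ratio unchanged. The median of all probes in CH against PR was -0.05, and -0.12, -0.11 and -0.11 with the scanner software's log ratio, median centring and the series table.

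Whether replicate numbers pair the arrays was not settled. Of 9 same-number correlations of deviations from the tissue means, 4 exceeded 0.1 (-0.08 to 0.29). Pairs with different numbers ranged from -0.31 to 0.25. With 3 arrays per tissue the deviations depend on each other, so these values cannot decide it. The 3 pairs of replicate 2, whose arrays share a slide, were among these 4, at 0.16, 0.29 and 0.23. With a replicate block, 0, 11 and 10 probes were called in RPE against CH, RPE against PR and CH against PR, as without it.

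With 3 arrays per tissue, a difference near the fold threshold is not settled, and intervals above give the size that remains possible. No dyes were swapped, so a dye effect of a probe cancels only in differences between tissues.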
